A study of Homo sapiens with 6 samples.

Results

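ID1, ID2, ID3 and ID4 encode the ID proteins, and TCF3, TCF4 and TCF12 encode the E-proteins that the ID proteins bind. Each of these 7 genes has a row of its own, with exactly that name, among the 26906 rows of the deposited table, and 0 of them stand in a row that joins several gene names. All 7 were tested. The cells were BE-(2)-C, an established line from a human neuroblastoma that carries extra copies of MYCN. Their RNA was measured 48 hours after treatment with either a control siRNA or an siRNA against ELF4, an ETS family transcription factor. Each of the 2 groups had 3 libraries of polyA-selected RNA, all from this 1 cell line, and no other treatment is named. The series title ties ELF4 to growth and to the undifferentiated state, so the question here was how the ID and E-protein genes differed between the groups.

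E-proteins are basic helix-loop-helix transcription factors. They bind the DNA sequence CANNTG, called the E-box, as pairs with each other or with tissue-restricted class II factors such as HAND2. ID proteins have the helix-loop-helix but lack the basic stretch that touches DNA, so an E-protein paired with an ID protein cannot bind. ID genes are classic targets of bone morphogenetic protein (BMP) signalling and are usually high in dividing progenitors, and ID2 has long been studied in neuroblastoma with MYCN amplification. TCF4 here is the E-protein also called E2-2, not the Wnt effector TCF7L2 that once carried the same name.

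The start regions of ID1, ID2 and TCF3 are shown because ID1 and TCF3 were the members of each family with the smallest adjusted p, and ID2 is the only 1 of the ID genes called lower that has an E-box in this window. Sequences and positions are from RefSeq on GRCh38.p14, each 300 bases from 250 before to 50 after the start, 5′ to 3′ on the gene's strand. Capitals mark CANNTG, the ETS-type sequence CCGGAAG and TATAAA, each searched on both strands.
ID1 (chr20:31605039-31605338, plus strand): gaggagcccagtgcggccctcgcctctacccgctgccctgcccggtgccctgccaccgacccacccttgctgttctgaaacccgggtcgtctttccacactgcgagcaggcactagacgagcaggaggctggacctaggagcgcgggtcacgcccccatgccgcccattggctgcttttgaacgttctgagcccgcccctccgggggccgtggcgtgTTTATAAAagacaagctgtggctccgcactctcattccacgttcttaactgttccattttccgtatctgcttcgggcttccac
ID2 (chr2:8681806-8682105, plus strand): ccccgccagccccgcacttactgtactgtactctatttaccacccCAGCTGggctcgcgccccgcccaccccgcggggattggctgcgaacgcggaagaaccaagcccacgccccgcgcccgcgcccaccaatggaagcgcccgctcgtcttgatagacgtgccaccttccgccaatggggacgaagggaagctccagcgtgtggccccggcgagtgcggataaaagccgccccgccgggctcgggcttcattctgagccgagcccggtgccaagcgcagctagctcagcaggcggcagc
TCF3 (chr19:1652566-1652865, minus strand): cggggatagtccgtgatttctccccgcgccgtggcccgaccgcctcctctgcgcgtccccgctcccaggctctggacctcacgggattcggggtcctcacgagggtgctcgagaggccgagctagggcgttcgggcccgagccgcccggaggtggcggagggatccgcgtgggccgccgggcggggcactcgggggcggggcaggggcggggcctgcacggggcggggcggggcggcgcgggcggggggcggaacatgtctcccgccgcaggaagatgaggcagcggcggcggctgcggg

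The ID1 window holds TATAAA in both directions in 1 overlapping stretch, starting 33 and 31 bases before the start, and no CANNTG. The ID2 window holds 1 E-box, which reads CAGCTG and begins 205 bases before the start. The TCF3 window holds none of the 3 motifs, and its G and C content was 78.3%. ID4 has CAGCTG 21 bases before its start and TATAAA 29 bases before it, and the ID3 window has none of the motifs. TCF12 has 5 annotated start windows with 2 CANNTG in all, and TCF4 has 10 windows with 10. The CANNTG of 1 TCF12 window and of 1 TCF4 window read CACGTG, the E-box bound by MYC family proteins. Over all 35116 RefSeq windows of this length, 68.7% hold CANNTG, 7.26% CACGTG, 10.3% CCGGAAG and 11.5% TATAAA. Over the 15133 windows of tested genes, as the members are, these shares are 61.8%, 9.1%, 15.6% and 6.54%. The ETS-type motif was in 0 of the members' windows.

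ELF4 was low in every ELF4 siRNA library. Control replicates 1 to 3 had 42.4, 38.8 and 46.8 normalised reads, that is, reads divided by a size factor per library, and the ELF4 siRNA libraries had 5.51, 5.61 and 3.10. Depth was 23148635 to 38097986 reads per library. Of 20339 genes tested with limma, 4217 rose (20.7%) and 4956 fell (24.4%), in all 45.1%, at a Benjamini-Hochberg adjusted p under 0.05. With upper quartile scaling the split was 5474 and 3939. The labels call the libraries triplicates and do not say that they came from separate cultures, so the p-values rest on a spread that may be only technical. Of 9 markers of neuroblastoma identity all were detected, with PHOX2A at 11664.9 and DBH at 9037.3 in control siRNA.

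Of the 7 members, 5 fell, 1 rose and 1 did not pass. ID1, ID2 and ID3 fell by 8.95% to 16.7% of their control level, TCF12 by 14.6% and TCF3 by 31.2%, whereas TCF4 rose by 11.7%. ID4 was expressed at a low level and did not pass. The groups did not overlap for 6 of the 7, with 5 lower and 1 higher after ELF4 siRNA. Among all tested genes they did not overlap for 53.6%, with 28.2% lower and 25.4% higher. These shares take in genes with few reads, and the share among genes as highly expressed as the 6 was not computed. Changes of this size were common in these data: 70.4% of the genes called had a larger absolute log2 fold change than ID1, 97.6% a larger one than ID2 and 28.7% a larger one than TCF3. In bulk RNA, fewer cells that express a gene and less RNA per cell cannot be told apart.

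**Figure D1:**
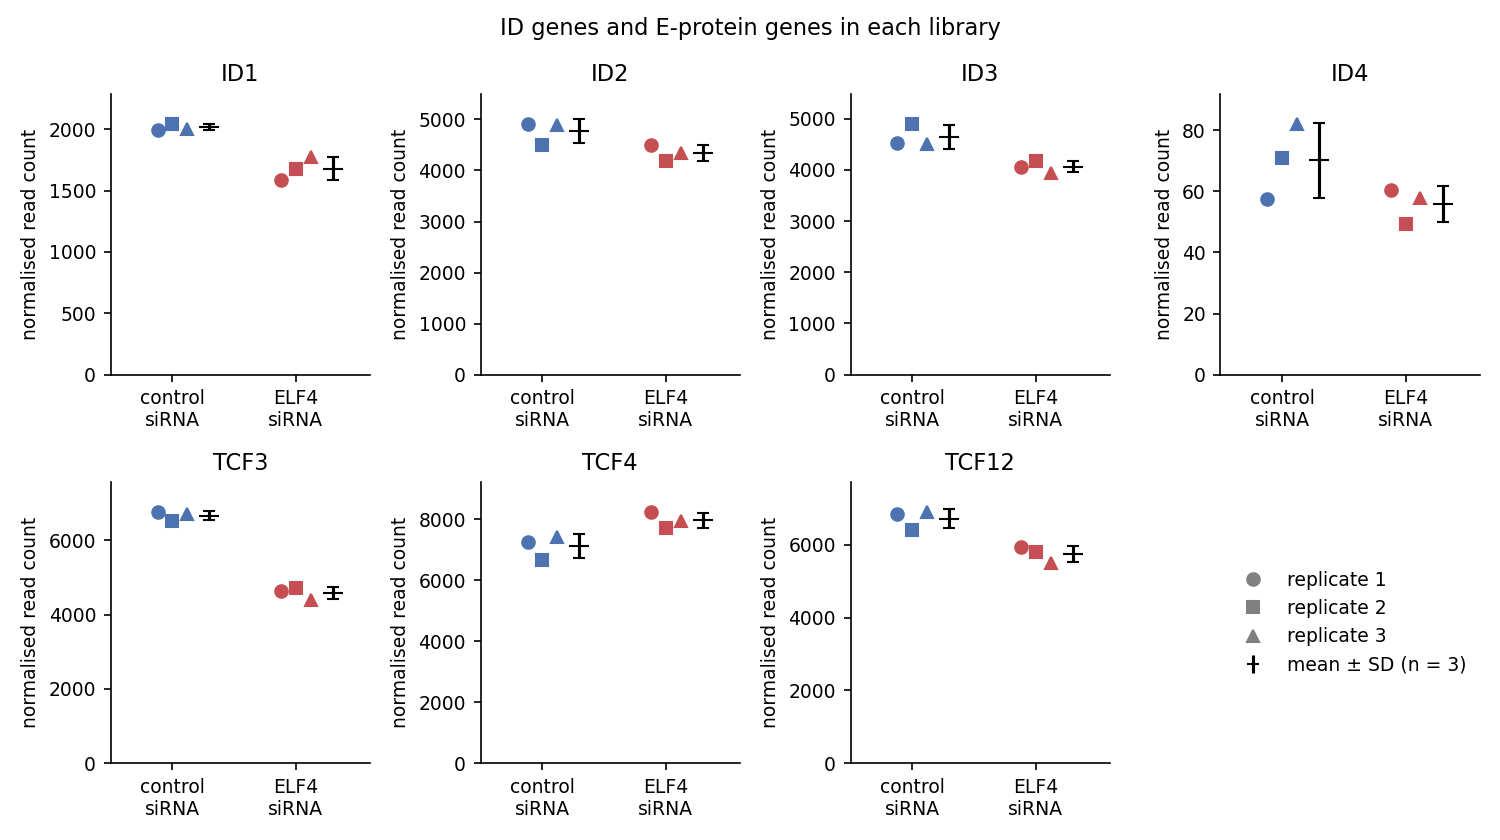
Normalised read count (y axis, from 0) of the 4 ID genes and the 3 E-protein genes in each library, by siRNA (x axis). Symbols are replicates and bars the mean ± SD (n = 3); the groups overlap for ID4 only.

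ID1 had the largest change among the ID genes that passed. Control replicates 1 to 3 held 1997, 2046 and 2006 normalised reads, and the ELF4 siRNA libraries in the same order held 1587, 1679 and 1771. The control values lay close together, while the ELF4 siRNA values were spread more widely and all lay below them. The mean went from 2016 ± 26.2 to 1679 ± 91.7 (SD, n = 3 each), which is -0.27 on the log2 scale (SE 0.05, limma adjusted p = 0.000471). The exact two-sided permutation test of the 6 values gave p = 0.1, the smallest that 3 against 3 allow, and the same p was reached by each member whose groups did not overlap.

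ID3 was the highest of the ID genes per kilobase in control siRNA. There were 4527, 4905 and 4499.7 normalised reads in control replicates 1 to 3, against 4064, 4165 and 3948 after ELF4 siRNA. Control replicate 2 was the highest and the groups did not overlap. The mean went from 4644 ± 227 to 4059 ± 109, or -0.19 in log2 (SE 0.04, limma adjusted p = 0.00258).

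ID2 had the smallest change of the 7. In control replicates 1 to 3 it had 4917, 4501 and 4885 normalised reads, and after ELF4 siRNA 4492, 4187 and 4345. Control replicate 2, where ID3 was highest, held the lowest control value of ID2 and lay just above ELF4 siRNA replicate 1. The mean went from 4768 ± 232 to 4341 ± 153 (log2 fold change -0.13, SE 0.05, limma adjusted p = 0.0265). This call was lost when control replicate 1 (limma adjusted p = 0.126), control replicate 3 (0.0995), ELF4 siRNA replicate 2 (0.102) or ELF4 siRNA replicate 3 (0.0528) was left out. It was also lost without the trend in the moderation (limma adjusted p = 0.12) and with upper quartile scaling (0.2).

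ID4 gave few reads. The control libraries had 57.5, 70.8 and 82.2 normalised reads for replicates 1 to 3, from 61, 62 and 116 reads. The ELF4 siRNA libraries had 60.6, 49.4 and 57.96, from 55, 44 and 56 reads. Control replicate 1 lay below ELF4 siRNA replicates 1 and 3, so the groups overlapped. The log2 fold change was -0.31 with a 95% interval from -0.63 to 0.01 (limma adjusted p = 0.108, exact permutation p = 0.3). Without control replicate 1 it was -0.45 and passed (limma adjusted p = 0.0374).

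TCF3, which encodes the E-proteins E12 and E47, had the largest change of the 7 members. It stood at 6761, 6535 and 6703 normalised reads in control replicates 1 to 3, but at 4632, 4726 and 4399 after ELF4 siRNA. The gap between the groups was several times the spread within them. The mean went from 6667 ± 117 to 4585 ± 168, or -0.54 in log2 (SE 0.04, 95% interval -0.63 to -0.45, limma adjusted p = 1.49e-07). Gene-level reads do not separate the 2 splice products.

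TCF12, which encodes the E-protein HEB, fell less. For replicates 1 to 3, control siRNA gave 6857, 6412 and 6900.4 normalised reads and ELF4 siRNA gave 5932, 5795 and 5495. All ELF4 siRNA values lay below the controls. The mean went from 6723 ± 270.4 to 5741 ± 224 (log2 fold change -0.23, SE 0.04, limma adjusted p = 0.000689).

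TCF4 was the only member that rose. With control siRNA, replicates 1 to 3 had 7269, 6671 and 7431 normalised reads, and with ELF4 siRNA 8234, 7716 and 7929.9. The groups did not overlap, with control replicate 2 the lowest of all. The mean went from 7124 ± 400.1 to 7960.0 ± 260.5 (log2 fold change 0.16, SE 0.05, limma adjusted p = 0.0104). The call was lost without ELF4 siRNA replicate 1 (limma adjusted p = 0.0608) and without the trend in the moderation (0.0846).

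**Figure D2:**
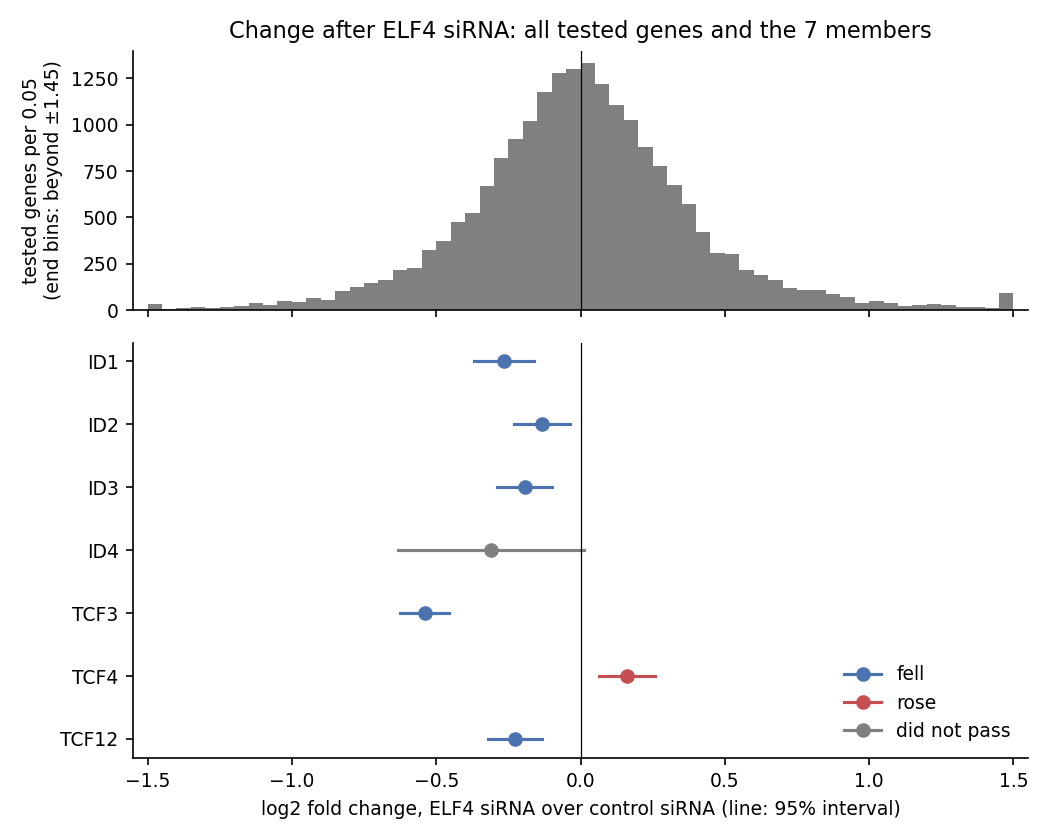
Above, number of tested genes (y axis) by their log2 fold change after ELF4 siRNA (x axis), with genes beyond the axis put in the end bins. Below, the same quantity for the 7 members with 95% intervals from limma; TCF3 at -0.54 lies farthest from 0 and the interval of ID4 reaches 0.01.

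The 3′ UTRs of TCF3 and TCF12 carry the 7-mer ACCTGTC. This 7-mer had been picked from earlier results of the libraries described here, with lower values after ELF4 siRNA in mind. The values of the genes that hold it are not given here. Its presence is thus a description and tests nothing. In the longest annotated 3′ UTR of each gene in GENCODE 29, TCF3 has 2 matches and TCF12 has 1, while TCF4, ID1, ID2, ID3, ID4 and ELF4 have 0. The sites are shown with 10 bases on either side and the 7-mer in capitals, to give their context in the 2 E-protein genes that fell.
TCF3 position 263 of 2417: tcactctgtgACCTGTCccatggatcc
TCF3 position 2362 of 2417: ggattcagagACCTGTCctgtatataa
TCF12 position 1419 of 3708: cttccatgaaACCTGTCttccaccaca

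A second 7-mer picked in the same way, CCTGTCA, was in 0 of the members' 3′ UTRs. The one found in TCF3 and TCF12 was in 11.3% of the 12556 tested genes with an annotated 3′ UTR, whose median length was 1424 bases. Either 7-mer was in 20.6% of these genes. The 3′ UTR of TCF4 is the longest of the members at 5704 bases, and those of ID1, ID2 and ID3 are 678, 776 and 523 bases long.

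Levels of different genes were compared as the normalised read count per kilobase of the longest GENCODE 29 transcript. All levels, shares and ratios given here are of RNA, and these data hold no protein values. In control siRNA the order of this level was ID3 (3712 ± 181), ID2 (2336 ± 113.5), ID1 (1635 ± 21.2), TCF3 (1498 ± 26.4), TCF12 (1109 ± 44.6), TCF4 (854 ± 48.0) and ID4 (29.9 ± 5.27), and the library values of neighbours did not overlap. This order holds for the longest transcript only. Per kilobase of the median transcript length it was TCF4 (7635 ± 429), TCF12 (7614 ± 306), TCF3 (5259.7 ± 92.6), ID3 (5206 ± 254), ID2 (4804 ± 234), ID1 (1811 ± 23.5) and ID4, where TCF4 and TCF12 overlapped, as did TCF3 and ID3. Which family had the higher level per kilobase thus depended on the length used, while the last place of ID4 and the order of ID3, ID2 and ID1 were shared by both. After ELF4 siRNA the level per kilobase of the longest transcript was 1030.2 ± 37.8 for TCF3, 954 ± 31.2 for TCF4 and 947 ± 36.9 for TCF12. TCF4 and TCF12 then overlapped, but per kilobase of the median length they were apart, at 8532 ± 279 and 6501 ± 253. With the longest transcript, TCF3 made up 43.1%, 44.1% and 42.6% of the summed E-protein level per kilobase in control replicates 1 to 3, and 34.6%, 36.1% and 34.7% in ELF4 siRNA replicates 1 to 3. TCF4 went from 24.7%, 24.0% and 25.2% to 32.8%, 31.4% and 33.4%. The share of TCF12 was 32.0% ± 0.209 and 32.3% ± 0.383, with groups that overlapped.

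The size and rank of these shares depend on the length used. With the median length, TCF3 went from 25.7% ± 0.633 to 19.4% ± 0.595, TCF4 from 37.2% ± 0.635 to 45.7% ± 1.10 and TCF12 from 37.1% ± 0.0424 to 34.8% ± 0.590. With no length scaling the shares went from 32.5% to 25.1% for TCF3, from 34.7% to 43.5% for TCF4 and from 32.8% to 31.4% for TCF12. The lower TCF3 share and the higher TCF4 share, with no overlap between groups, were common to all 3 scalings, whereas TCF12 overlapped with the longest transcript and was lower without overlap in the other 2.

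**Figure D3:**
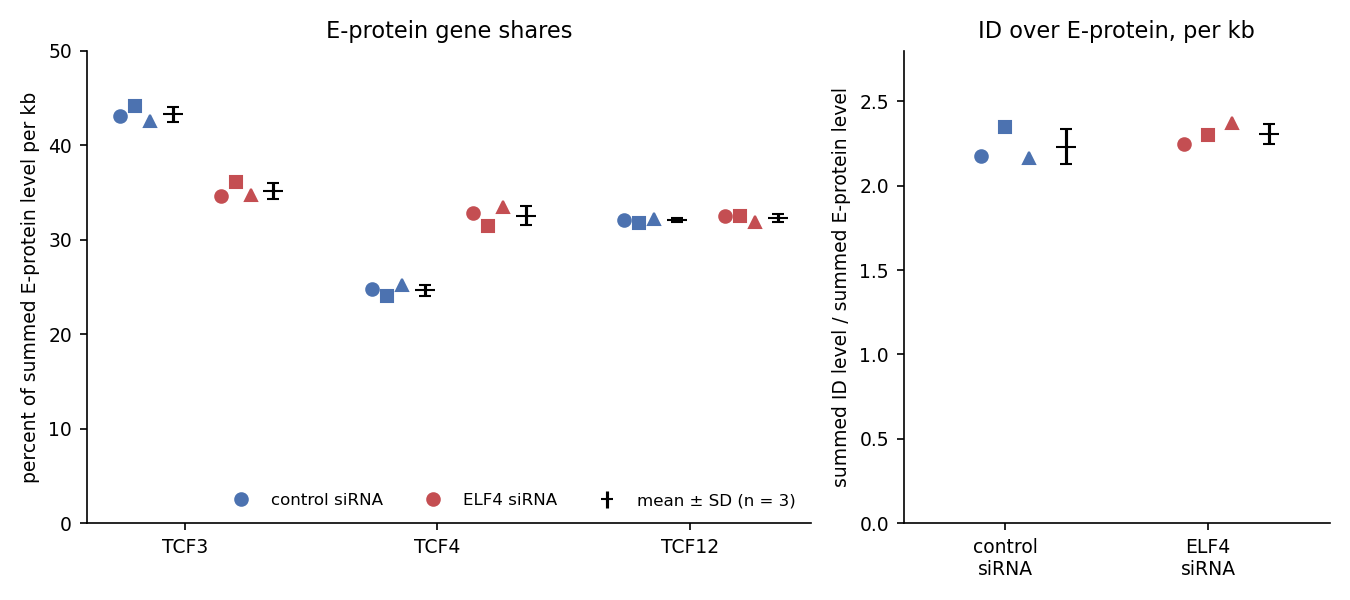
Left, percent of the summed E-protein RNA level per kilobase of the longest transcript (y axis) taken by TCF3, TCF4 and TCF12 in each library. Right, the summed ID RNA level over the summed E-protein RNA level per kilobase. Points are replicates, bars the mean ± SD (n = 3); the shares of TCF3 and TCF4 do not overlap between groups, while the ratio on the right does.

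Both families were lower in summed RNA. The summed ID level per kilobase went from 7713 ± 89.2 to 6757 ± 10.1, and the summed E-protein level from 3461 ± 117 to 2931 ± 81.1, with no overlap between groups in either. Their ratio was 2.18, 2.35 and 2.16 in control replicates 1 to 3, and 2.25, 2.30 and 2.37 in ELF4 siRNA replicates 1 to 3, so the groups overlapped. The ratio depends on the transcript length used, and TCF4 has 90 annotated transcripts and TCF12 has 28. With the median transcript length it was 0.578 ± 0.0259 in control siRNA and 0.561 ± 0.012 after ELF4 siRNA, again with overlap but with the small difference pointing down and not up. It also pointed down with no length scaling (0.561 ± 0.0229 and 0.554 ± 0.0126, with overlap).

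The genes around this network were taken from 6 lists, whose counts stand beside the 20.7% of all tested genes that rose and the 24.4% that fell. Among the class II factors that pair with E-proteins, 9 of 41 were tested and 27 had no row of their own; 2 rose (22.2%), 4 fell (44.4%) and 3 did not pass (median log2 fold change -0.15, against -0.004 over all tested genes). HAND2, a factor of the sympathetic lineage, went from 13710.4 ± 509 to 18572 ± 558 (0.44, limma adjusted p = 1.01e-06). LYL1, known from blood cells, went from 571 ± 8.88 to 258 ± 26.8 (-1.15, limma adjusted p = 4.99e-08), and MSC, a repressor also called musculin, from 38.6 ± 3.78 to 99.5 ± 2.29 (1.35). HAND1, the paralogue of HAND2 and chosen here after its values were seen, moved the other way. Replicates 1 to 3 had 12561, 12030 and 12447 normalised reads with control siRNA, and 10131, 10457 and 9843 with ELF4 siRNA (-0.28, limma adjusted p = 3.49e-05). The summed normalised read count of the class II genes was 33406 to 35383 in control siRNA and 35215 to 36830 after ELF4 siRNA.

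In the BMP and SMAD pathway, which feeds into ID transcription, 7 of 30 tested genes rose (23.3%), 14 fell (46.7%) and 9 were not called; the list median was -0.18. Over all tested genes 20.7% rose, which is near the share here, and 24.4% fell. The ligand gene BMP7 went from 1077 ± 10.4 to 571 ± 27.4 (-0.92, limma adjusted p = 1.79e-08). Of the receptors, ACVR2B, a type II receptor, went from 1975 ± 23.3 to 1169 ± 17.9 (-0.76) and ACVRL1, a type I receptor, from 447 ± 32.4 to 206 ± 1.73 (-1.11). Other receptors, chosen after their values were seen, were called in both directions. ACVR1 went from 509 ± 5.26 to 596 ± 40.7 (0.22, limma adjusted p = 0.00927) and BMPR1B from 717 ± 24.1 to 804 ± 34.0 (0.17, limma adjusted p = 0.0255). BMPR1A (-0.28, limma adjusted p = 0.00482) and BMPR2 (-0.14, limma adjusted p = 0.0425) fell. The groups overlapped for BMPR2, with ELF4 siRNA replicate 3 (2420) above control replicate 2 (2400). Also chosen after their values were seen, the signal transducers SMAD1 (-0.61), SMAD5 (-0.60) and SMAD4 (-0.26) fell as well, and so did the inhibitors SMAD6 (-0.22) and BAMBI (-0.52). SMAD9 (-0.01, limma adjusted p = 0.838) and SMAD7 (0.05, adjusted p = 0.6) did not pass. BMP6, another ligand, and GREM1, a secreted BMP antagonist, rose from few reads. BMP6 had 6, 4 and 10 reads in control replicates 1 to 3 and 32, 30 and 47 in ELF4 siRNA replicates 1 to 3, and GREM1 had 15, 9 and 11, then 47, 48 and 91. Both were also chosen after their values were seen.

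Among E-box repressors and E-protein cofactors, 6 of 19 tested genes rose (31.6%), 4 fell (21.1%) and 9 were not called; their median was 0.06. The share that fell is near the 24.4% of all tested genes. CBFA2T2 and RUNX1T1 encode corepressors of the ETO family that bind E-proteins, and they moved in opposite directions. CBFA2T2 went from 1144 ± 16.9 to 2022 ± 143 (0.82, limma adjusted p = 4.92e-08), and RUNX1T1 from 556 ± 53.0 to 315 ± 19.9 (-0.82, limma adjusted p = 1.54e-06). LMO3, a LIM-only protein gene, went from 364 ± 15.5 to 145 ± 14.2 (-1.33). The coactivators EP300 (0.18) and CREBBP (0.24) and the E-box repressor ZEB1 (0.26), chosen after their values were seen, rose by small amounts, whereas SNAI1 (-0.42) and SNAI2 (-0.39) fell. Their paralogues did not follow them. ZEB2 (-0.07) was not called. SNAI3 was called higher from few reads, with 8, 9 and 14 in control replicates 1 to 3 and 19, 17 and 23 in ELF4 siRNA replicates 1 to 3.

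Of the HES, HEY and BHLHE repressors, a family of helix-loop-helix proteins that includes Notch targets, 0 of 9 tested genes rose, 3 fell (33.3%, against 24.4% of all tested genes) and 6 were not called (median -0.13). HES1 went from 182 ± 11.3 to 107 ± 9.02 (-0.76, limma adjusted p = 2.22e-05) and HEY1 from 818 ± 33.5 to 606 ± 30.4 (-0.43). HES6 had -0.18 (limma adjusted p = 0.0237), a call lost without control replicate 1 (0.0508), control replicate 2 (0.0853) or ELF4 siRNA replicate 1 (0.0831), with DESeq2 (0.0864), with upper quartile scaling (0.147) and without the trend in the moderation (0.0579).

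Further genes act on ID proteins or have products that ID proteins bind. Of the 10 tested genes of ID turnover and pocket proteins, 2 rose (20%), 5 fell (50%) and 3 were not called (median -0.09). Over all tested genes 20.7% rose and 24.4% fell. A gene among the 2 that rose is also counted among those that rose in the BMP and SMAD list. USP1, the deubiquitinase that stabilises ID proteins, went from 2510.0 ± 146 to 1702 ± 29.8 (-0.56, limma adjusted p = 6.79e-07). DYRK1B, a kinase reported to phosphorylate ID2, had 592, 508 and 567 normalised reads in control replicates 1 to 3, and 1093, 1166 and 1084 in ELF4 siRNA replicates 1 to 3 (1.00, limma adjusted p = 3.19e-08). All 3 pocket protein genes, whose products ID2 can bind, fell: RBL2 went from 1564 ± 35.1 to 1099.7 ± 31.2 (-0.51), and RB1 (-0.70) and RBL1 (-0.43) were chosen after their values were seen. Of the 7 CDK inhibitor genes, some of them known E-protein targets, 0 rose, 2 fell (28.6%, near the 24.4% of all tested genes) and 5 were not called (median 0.01). CDKN1A went from 495 ± 37.7 to 255 ± 56.0 (-0.97, limma adjusted p = 1.37e-05) and CDKN1B from 2164 ± 138 to 1819.8 ± 107 (-0.25), while CDKN1C, from few reads, had 0.32 (limma adjusted p = 0.295).

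**Figure D4:**
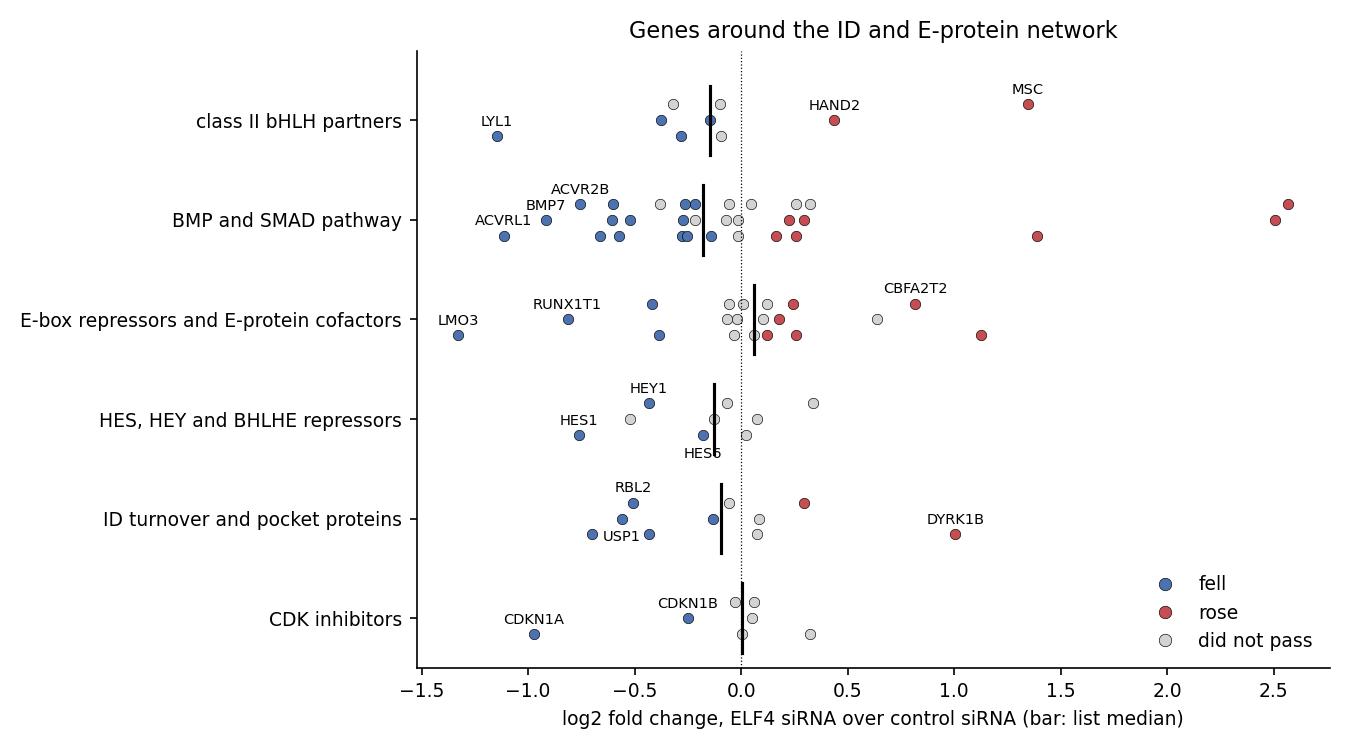
Change after ELF4 siRNA on the log2 scale (x axis) for each tested gene of the 6 lists (rows), coloured by limma call, with the list median as a bar. The list medians lie between -0.18 for the BMP and SMAD pathway and 0.06 for the E-box repressors and cofactors.

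The genes most like ID1 and TCF3 over the 6 libraries were found by the root mean square distance of log2 values, each relative to the gene's control mean, among 11978 other genes with a mean of at least 100. Among the nearest to ID1 were RBM3, a cold-induced RNA-binding protein gene (distance 0.0228), and AGO3, an Argonaute gene (0.0233). Nearest to TCF3 were MCM10, a replication initiation gene (0.0179), TP53RK, a kinase gene (0.0196), and PCNA, the sliding clamp gene (0.0226). MCM10 went from 2042 ± 57.3 to 1422 ± 59.6 and PCNA from 8201 ± 58.9 to 5637.0 ± 115, with log2 fold changes of -0.52 and -0.54 beside the -0.54 of TCF3. The distance takes in the ELF4 siRNA values, so fold changes this close follow from how the genes were chosen. Whether these genes share anything with TCF3 beyond that was not tested.

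Markers of other cell types were also present at various levels. Their calls stand beside the 20.7% of all tested genes that rose and the 24.4% that fell. The summed normalised read count of 6 Schwann and glial markers was 632 to 672 in control siRNA and 1253 to 1303 after ELF4 siRNA, with 2 of 4 tested markers called higher and 1 lower, and most of the sum was PMP22. For 7 fibroblast markers the sum was 3855 to 3918 and 3851 to 4162, with 4 of 6 tested called higher and 1 lower. Within this sum PDGFRB went from 1989 ± 63.4 to 875 ± 66.4, while DCN went from 968 ± 33.7 to 1722 ± 58.7. For 6 epithelial markers the sum was 231 to 249 and 192 to 232, with 1 of 4 tested called higher and 2 lower. For the 3 blood and endothelial markers with a row the sum was 53.7 to 59.5 and 45.2 to 64.0, with 1 of 2 tested called each way. No marker with a row was at 0 throughout, though the glial marker SOX10 averaged 2.01 in control siRNA. The part of these markers in the changes of the members was not tested.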

How the data were processed

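PolyA-selected RNA was extracted with Trizol per the labels' protocols. The authors deposited 1 table of normalised read counts, a signal per gene and library. The submitters' processing notes name hg19 as the build and TopHat, DESeq2 and featureCounts as tools. Their versions and roles, the annotation, the strand setting and any filter were not given in the sources used here. All values (100.0%) divided by the worth of 1 read were whole within 0.001, so the deposited signal is read counts over a size factor per library (0.875 to 1.41), and whole reads were recovered for 6 libraries.

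ELF4 siRNA was compared with control siRNA by limma with a trend on log2(value + 1), over all genes that reached 10 in 3 or more libraries. Fold changes are on that scale. P-values were Benjamini-Hochberg adjusted over all tested genes, with a threshold of 0.05. Alternatives were pseudocounts of 0.5 and 5, no filter, a mean of at least 100, no trend, upper quartile scaling, edgeR and DESeq2 on recovered reads, a replicate block and leaving out each library. The members and lists were chosen with earlier results of these data known. Named were the members, ELF4, up to 3 genes per list with the smallest adjusted p, and the 3 genes most like ID1 and TCF3. Some genes that this rule or the lists take in are not reported here. Fold changes were planted in counts drawn from the control siRNA means over 20166 genes, with a fixed dispersion. The same fit called 82% of 100 genes planted at 0.5 in log2 and 96% of 100 planted at 1. It also called 7 unchanged genes. Far fewer genes were planted than the 45.1% called in the data, which moves the Benjamini-Hochberg cut. Among the members only TCF3 changed by 0.5 or more in log2. The rates do not cover the smaller changes of the others. The software was matplotlib 3.10.9, pandas 2.3.3, scipy 1.17.1 and numpy 2.4.6 under Python 3.11.15, and DESeq2 1.42.0, edgeR 4.0.16 and limma 3.58.1 under R 4.3.3.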

Additional observations from a re-analysis of the deposited data

How the results depend on the processing

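ID1, ID3, TCF3 and TCF12 kept their direction and their call under all alternatives run. The log2 fold change ranged from -0.30 to -0.20 for ID1, -0.22 to -0.13 for ID3, -0.56 to -0.48 for TCF3 and -0.26 to -0.16 for TCF12. ID2 did not pass without the trend (-0.13, limma adjusted p = 0.12) or with upper quartile scaling (-0.07, adjusted p = 0.2), and leaving out 1 library gave -0.18 to -0.11. TCF4 did not pass without the trend (0.16, limma adjusted p = 0.0846), and leaving out 1 library gave 0.11 to 0.19. For ID4, leaving out 1 library gave -0.45 to -0.19, and it has no value at a mean of at least 100, which it does not reach. The change of the ID over E-protein ratio was 3.37% with the longest and -3.05% with the median transcript length, -1.17% with no length scaling, and 1.86% to 6.21% when 1 library was left out. With a mean of at least 100 the rising genes numbered 1 in place of 2 among class II factors and 4 in place of 7 in the BMP and SMAD pathway, by construction of that limit, and with upper quartile scaling 1 CDK inhibitor rose in place of 0. The cause of the other differences was not tested. Over all genes, 3353 to 5474 rose and 3939 to 5346 fell under the alternatives. Same-numbered libraries had correlations of their deviations of 0.029, 0.075 and 0.041, so the numbers were not taken as pairs, although each of the 6 libraries correlated best with its own number, a hint from the data and not the design. A fit with the replicate block called 4564 genes higher and 5346 lower, and no call among the 7 members changed. Depth limits ID4, which rests on 44 to 116 reads per library.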
